A study of Mus musculus with 8 samples.

Results

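The genes described here bring iron into the cell, store it, release it or sense it. They were chosen by name as 10 genes: the transferrin receptor *Tfrc*, the ferritin subunits *Fth1* and *Ftl1*, the exporter *Slc40a1*, the metal transporters *Slc11a1* and *Slc11a2*, the iron sensors *Ireb2* and *Aco1*, the ferritin cargo receptor *Ncoa4* and the siderophore-binding protein *Lcn2*. All 10 were found among the 48795 genes of the tables, and 10 of the 10 passed the filter on low counts. Peritoneal macrophages (pMacs) were taken by lavage from 4 WT C57BL/6 mice and from 4 CD1d-KO mice, and polyadenylated RNA was sequenced with 1 library per mouse in the steady state, with no stimulation. The question of the series was which genes differ in level when macrophages lack CD1d, the molecule that presents lipid antigens to NKT cells. The methods of the study name a pair of CD1d-KO lines, a cross of CD1dflox with PGK-Cre and the deletion line B6.129S6-Del(3Cd1d2-Cd1d1)1Sbp/J. Which of them each mouse came from is not in the labels. Both are meant to remove CD1d from all cells (PGK-Cre is active in every tissue), and mice without CD1d also lack NKT cells. Whether each of these mice lacked NKT cells is not in the labels. The controls were littermates, and the adult mice were matched for age and sex.

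Some macrophages handle iron in bulk, because they digest aged red blood cells and return the metal to the blood. Whether the pMacs sequenced here do so was not measured. Iron bound to transferrin enters through the transferrin receptor, surplus iron is kept inside ferritin shells, and ferroportin, encoded by *Slc40a1*, is the known exporter of iron from the cell. When iron is scarce, the iron regulatory proteins IRP1 (*Aco1*) and IRP2 (*Ireb2*) bind hairpins called iron-responsive elements in the untranslated regions of mRNAs. Bound in the 5′ UTR they block translation, and bound in the 3′ UTR of *Tfrc* they protect the mRNA from decay, so part of this control does not show in mRNA levels.

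Iron-responsive elements were searched for in the untranslated regions of the GENCODE M21 transcripts of the mouse genome GRCm38, because they are the elements that the sensors are known to bind. The pattern, read on the sense strand, was a lower stem of 5 bases, an unpaired C, an upper stem of 5 pairs and the loop CAGTGN. G-T pairs were allowed, and at least 3 of the 5 lower pairs had to form. In the 5′ UTR, 3 of the 10 members held 1 match each. In these sequences, 5′ to 3′, the capitals mark the 6-base loop.
Fth1 (chr19:9982733-9982759, plus strand): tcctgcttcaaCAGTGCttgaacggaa
Ftl1 (chr7:45459780-45459806, minus strand): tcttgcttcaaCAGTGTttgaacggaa
Slc40a1 (chr1:45925466-45925492, minus strand): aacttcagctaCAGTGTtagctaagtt

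*Tfrc* was the member with matches in its 3′ UTR, where 4 lay within one stretch of the plus strand, again with the loop in capitals.
Tfrc element 1 (chr16:32631220-32631246): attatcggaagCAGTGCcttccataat
Tfrc element 2 (chr16:32631599-32631625): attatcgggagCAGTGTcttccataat
Tfrc element 3 (chr16:32631664-32631690): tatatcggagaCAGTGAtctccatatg
Tfrc element 4 (chr16:32631711-32631737): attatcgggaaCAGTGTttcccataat

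The same pattern stood in the 5′ UTR of 7 of 20864 genes (0.0336%) and in the 3′ UTR of 35 of 21627 genes (0.162%). The UTRs differ in length, with a median of 200 bases for the longest 5′ UTR of a gene and 914 for the longest 3′ UTR. *Slc11a1*, *Slc11a2*, *Ireb2*, *Aco1*, *Ncoa4* and *Lcn2* had no match to these letters in either UTR. A match is a description of the sequence and not a measurement of binding.

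Between 13698864 and 19059432 reads were counted on genes per library, with a median of 14436660. The macrophage markers *Adgre1*, *Csf1r* and *Lyz2* were abundant in all 8 libraries (*Adgre1* from 10103 to 14182 normalized counts, that is counts scaled to the mean library size). Markers of B cells were also present, and their summed level varied more between mice (2951 to 8056 normalized counts in WT and 1950 to 13333 in CD1d-KO). The deleted gene *Cd1d1* stood at 68.2, 175, 96.1 and 141 normalized counts in WT replicates 1, 2, 3 and 5. It stood at 1.14, 0 and 1.10 in CD1d-KO replicates 2, 3 and 5, but at 60.7 in the library labelled CD1d-KO replicate 1. In its *Cd1d1* level that library goes against its label, and the labels give no reason. The fitted difference of each named iron gene is therefore given for all 4 pairs and again without the pair of replicate 1. None of the members lies on chromosome 3, which carries *Cd1d1*.

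The ferritins stood far above the rest of the set in both genotypes. Levels were compared between genes in TPM, a unit that corrects for transcript length and sums to the same total in each library. *Fth1* had 33158 ± 2495 TPM (SD, n = 8 libraries), rank 4 among all genes, and *Ftl1* had 19890 ± 2628 TPM, rank 8. Together the ferritins made up 4.52% to 5.97% of all TPM, and 2.29% to 3.06% of the counted reads. *Slc11a1*, the phagosome metal transporter also called Nramp1, came next with 477 ± 39.9 TPM (rank 250), a level at which the ranges over libraries did not overlap with those of the genes above and below it.

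Below these the levels were modest. *Ncoa4* had 53.2 ± 6.93 TPM and *Slc11a2*, the transporter DMT1 that moves iron out of endosomes, 47.3 ± 8.73 TPM, and their ranges overlapped. *Ireb2* followed with 19.2 ± 2.20 TPM and *Aco1* with 16.2 ± 2.06 TPM. *Slc40a1* had 11.7 ± 5.54 TPM, *Tfrc* 10.5 ± 2.90 TPM and *Lcn2* 6.84 ± 3.10 TPM (SD, n = 8). From *Ireb2* down to *Lcn2* each gene overlapped in range with the next. Within libraries, *Ireb2* was above *Aco1* in 7 of 8, *Aco1* above *Slc40a1* in 7 of 8 and *Tfrc* above *Lcn2* in 6 of 8. Genes further apart in this order were in part separate in range. The lowest *Ireb2* value (16.0 TPM) was above the highest *Tfrc* (14.7) and *Lcn2* values (12.9). The gap between *Slc11a2* and *Ireb2* held in 8 of 8 libraries. *Slc40a1* and *Tfrc* traded places from library to library, with *Slc40a1* the higher of the pair in 4 of 8.

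**Figure D1:**
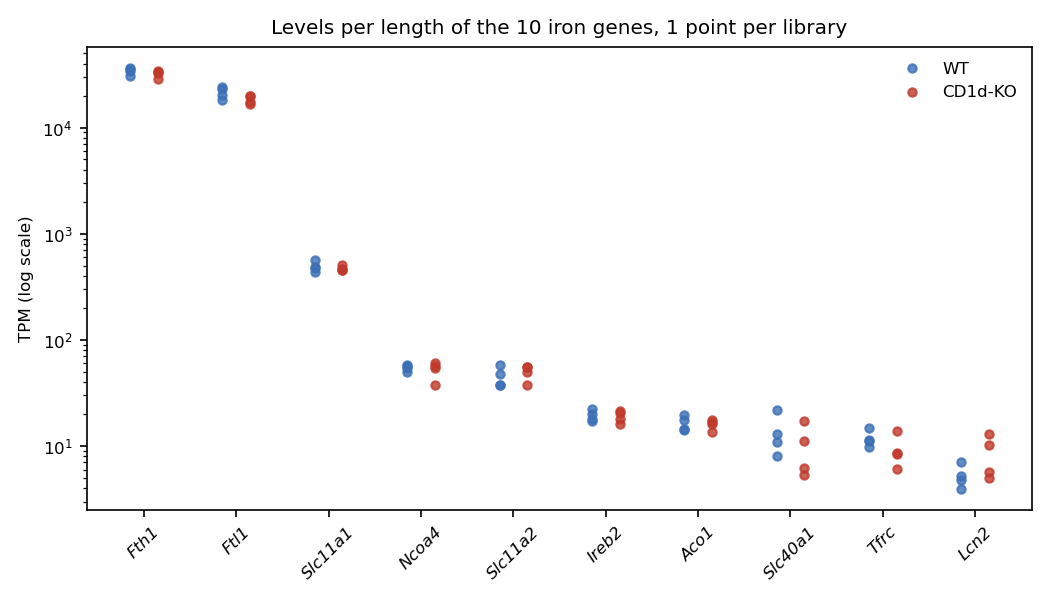
TPM of the 10 iron genes on a log axis, with 1 point for each of the 8 libraries, WT in blue and CD1d-KO in red, in the order of the mean. The ferritins sit between 16532 and 36335 TPM, *Slc11a1* between 433 and 560, and the 7 others below 60.

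None of the 10 genes was called different between WT and CD1d-KO pMacs. The thresholds were a fold change above 1.5 together with an adjusted p-value below 0.01. The p-values came from edgeR's quasi-likelihood test with replicate number in the model, and were adjusted by Benjamini-Hochberg over 13040 genes. By this rule 5 genes of the whole table were called, or 0.0383%, so a set of 10 genes with 0 calls does not stand apart from it. The deleted gene *Cd1d1* was itself not called by this fit (log2 fold change -3.42, adjusted p = 0.233 in edgeR). Without replicate 1 it was called (-7.27, adjusted p = 6.85e-04 in edgeR), and DESeq2 called it with all pairs (-6.35, adjusted p = 0.00274). DESeq2 also called 0 of the 10, against 105 genes (0.989%) of those to which it gave an adjusted p-value. At an unadjusted p under 0.05 there were 3 members, *Slc11a2* and *Lcn2* higher and *Tfrc* lower in CD1d-KO pMacs, where 12.4% of all tested genes reached that level. Without replicate 1 there were 2, *Slc11a2* and *Lcn2*, against 9.23% of the genes tested in that fit.

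Most fitted differences were small and negative. The log2 fold change was negative for 8 members and positive for 2, with a median of -0.07 beside 0.0047 over all tested genes. The CD1d-KO library exceeded its WT partner in 4 of 4 pairs for *Slc11a2* and *Lcn2*, as for 10.6% of all tested genes, and stayed below it in 4 of 4 for *Fth1*, as for 10% of them. In 0 members were the WT and CD1d-KO libraries fully apart, against 1.95% of tested genes. The 95% interval of the fold change stayed within 1.5-fold in either direction for 7 members, and reached past it for *Tfrc*, *Slc40a1* and *Lcn2*, so a change of more than 1.5-fold is within the interval of these 3. The intervals of *Tfrc* and *Lcn2* leave out 0 before adjustment and that of *Slc40a1* includes it. In bulk RNA, fewer cells that express a gene and less RNA per cell cannot be told apart.

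**Figure D2:**
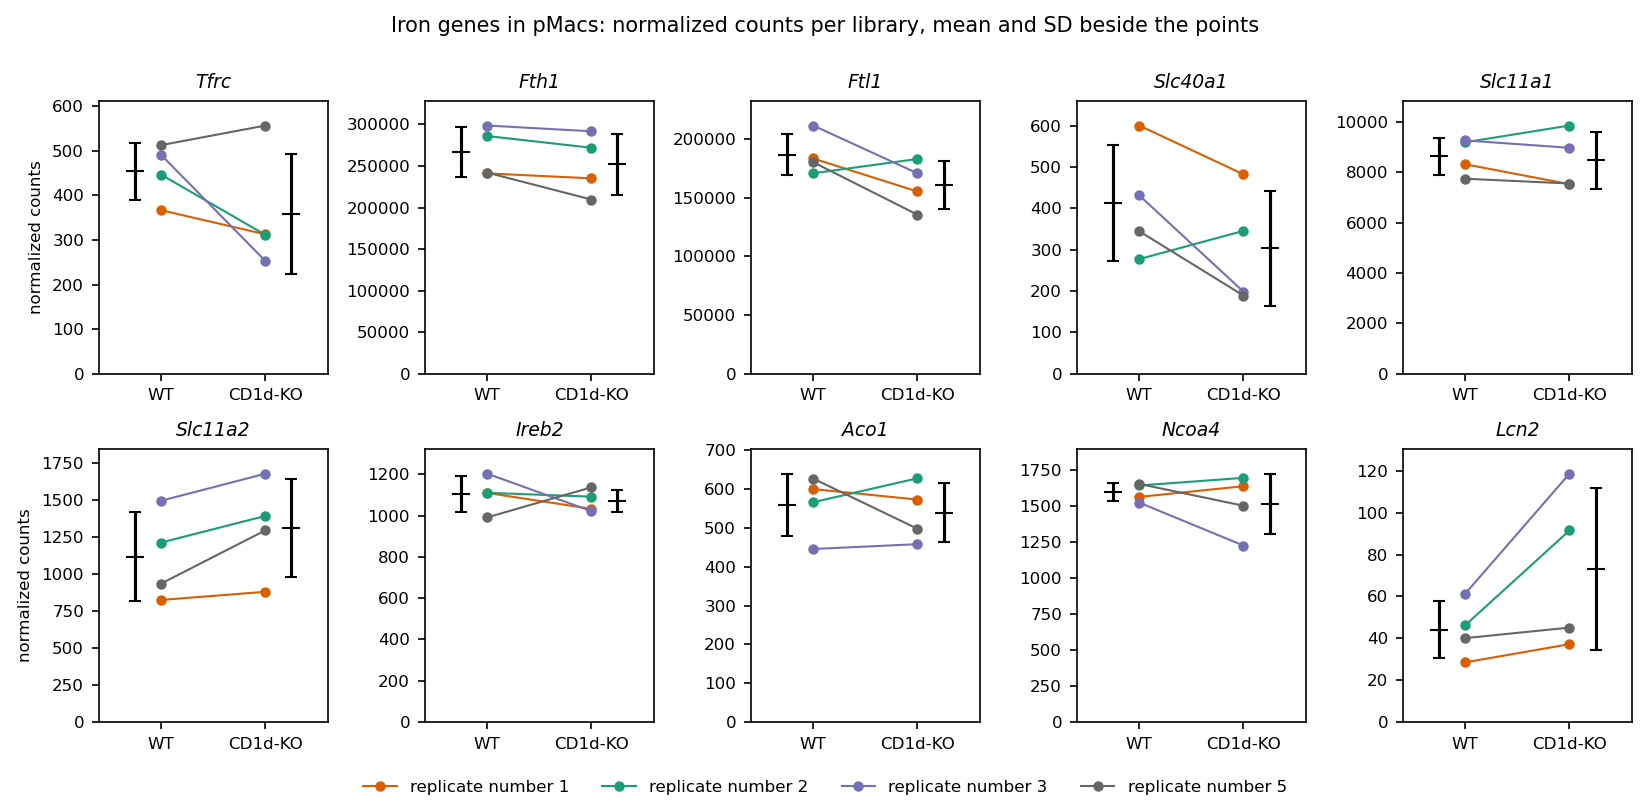
Normalized counts of the 10 iron genes in WT and CD1d-KO pMacs, with a line joining the libraries that share a replicate number and the mean ± SD (n = 4) at the sides. The CD1d-KO end is the higher one on all 4 lines for *Slc11a2* and *Lcn2* and the lower one on all 4 for *Fth1*, and in each of the 10 panels the points of WT and CD1d-KO overlap.

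*Tfrc* (ENSMUSG00000022797, chr16:32608920-32632794), the receptor through which transferrin-bound iron enters, had 366, 446, 490 and 512 normalized counts in WT replicates 1, 2, 3 and 5. In CD1d-KO replicates 1, 2, 3 and 5 it had 312, 311, 253 and 556. Of the CD1d-KO libraries 3 lay below all WT libraries, and replicate 5 lay above all of them. The means were 454 ± 64.4 and 358 ± 135 (SD, n = 4), a log2 fold change of -0.38 with a standard error of 0.16 (95% interval -0.75 to -0.01, adjusted p = 0.388 in edgeR). Without replicate 1 the log2 fold change was -0.44 (adjusted p = 0.550 in edgeR), but it shrank to -0.20 without replicate 3 and was -0.56 without replicate 5 (adjusted p = 0.720 and 0.445). The CD1d-KO library with the highest *Tfrc*, replicate 5, also had the highest summed level of B cell markers (13333 normalized counts). Among the WT libraries replicate 5 was highest in both as well (8056 for the markers). The next highest CD1d-KO sum, 8814 in replicate 1, went with 312 for *Tfrc*, and WT replicate 1, with a sum of 7237, had the lowest WT *Tfrc*. The part of B cells in the *Tfrc* values was not tested.

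*Slc40a1* (ENSMUSG00000025993, chr1:45908068-45926523), which encodes the exporter ferroportin, varied strongly between mice of one genotype. Its normalized counts were 600, 277, 431 and 345 in WT replicates 1, 2, 3 and 5, and 482, 345, 199 and 189 in the CD1d-KO libraries of the same numbers. The CD1d-KO library was the lower one in 3 of 4 pairs, and the higher one in the pair of replicate 2. The pair of replicate 1 had the highest level in both genotypes, and the range of the pair means spanned 1.07 on the log2 scale. Its log2 fold change was -0.48 with a standard error of 0.21 (95% interval -0.97 to 0.01, adjusted p = 0.411 in edgeR), and -0.55 without replicate 1 (adjusted p = 0.590). Leaving out replicate 2 moved it to -0.73 (adjusted p = 0.0753 in edgeR) and leaving out replicate 3 to -0.28 (adjusted p = 0.744).

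The ferritin heavy chain *Fth1* (ENSMUSG00000024661, chr19:9980598-9985098), the subunit that oxidises iron for storage, was nearly level between the genotypes. It had 241125, 286067, 298705 and 242019 normalized counts in WT replicates 1, 2, 3 and 5, and 235125, 271968, 291764 and 209641 in CD1d-KO. Each CD1d-KO library was slightly below its WT partner, by 0.03 to 0.21 on the log2 scale, a difference smaller than that between pairs, whose means spanned 0.39. The fitted log2 fold change was -0.09 with a standard error of 0.09 (95% interval -0.31 to 0.13, adjusted p = 0.769 in edgeR).

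*Ftl1* (ENSMUSG00000050708, chr7:45457944-45459884), the light chain that helps form the iron core, had 183285, 170683, 211337 and 180084 normalized counts in WT replicates 1, 2, 3 and 5. In the CD1d-KO libraries it had 155174, 182881, 170640 and 135432, lower in 3 of 4 pairs and higher in the pair of replicate 2. Its log2 fold change was -0.22 with a standard error of 0.11 (95% interval -0.47 to 0.04, adjusted p = 0.482 in edgeR). The ratio of *Fth1* to *Ftl1* in TPM was 1.61 ± 0.18 in WT and 1.75 ± 0.11 in CD1d-KO pMacs (SD, n = 4), with overlapping ranges.

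Both ferritins have copies of similar sequence in the annotation, most of them processed pseudogenes. RSEM divides reads that match more than 1 of them. For *Ftl1*, 8 copies had counts, *Ftl1-ps1*, *Gm15590*, *Ftl2-ps*, *Gm10252*, *Ftl1-ps2*, *Gm12164*, *Gm7541* and *Gm5278*, and they took 1.83% to 2.39% of the reads given to *Ftl1* and its copies. For *Fth1* there was 1, *Gm6977*, with 0.203% to 0.247%. The annotation gives *Ftl1-ps1* as protein-coding. *Gm10252*, 100% identical to *Ftl1* over 356 bases, lies on chromosome 7 like *Ftl1* itself. With the copies added in, the log2 fold changes were -0.22 for *Ftl1* (adjusted p = 0.478 in edgeR) and -0.09 for *Fth1* (adjusted p = 0.769), so the share of the copies is too small to move either value.

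*Slc11a2* (ENSMUSG00000023030, chr15:100387898-100425072) had 824, 1212, 1495 and 935 normalized counts in WT replicates 1, 2, 3 and 5, and 879, 1392, 1678 and 1295 in the CD1d-KO libraries. All 4 CD1d-KO libraries were above their WT partners, but the pairs differed more than the genotypes, with replicate 1 lowest and replicate 3 highest on average (a span of 0.89 on the log2 scale). The log2 fold change was 0.23 with a standard error of 0.08 (95% interval 0.05 to 0.41, adjusted p = 0.277 in edgeR), 0.28 without replicate 1 (adjusted p = 0.445) and 0.15 without replicate 5 (adjusted p = 0.649). On the TPM scale the CD1d-KO library was higher in 2 of 4 pairs. The gene is known to make transcripts with and without an iron-responsive element at the 3′ end, which the counts per gene do not separate, and the pattern searched above did not match that element.

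The working protein of *Slc11a1* (ENSMUSG00000026177, chr1:74375195-74386062) pumps iron and manganese out of the phagosome, and its activity in these mice was not measured. The gene showed the smallest fitted difference of the set. Its normalized counts ran from 7749 to 9271 in WT and from 7533 to 9863 in CD1d-KO pMacs. The log2 fold change was -0.03 with a 95% interval of -0.21 to 0.14 (adjusted p = 0.915 in edgeR), and 0.01 without replicate 1, so its sign turned.

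The iron sensors were close to level. *Ireb2* (ENSMUSG00000032293, chr9:54863789-54912530) ran from 992 to 1204 normalized counts in WT and from 1022 to 1138 in CD1d-KO, with a log2 fold change of -0.04 (95% interval -0.23 to 0.15, adjusted p = 0.894 in edgeR). It was the steadiest member, with pair means that spanned 0.06 on the log2 scale. *Aco1* (ENSMUSG00000028405, chr4:40143081-40198338) ran from 446 to 627 in WT and from 458 to 628 in CD1d-KO, with a log2 fold change of -0.05 (95% interval -0.27 to 0.16, adjusted p = 0.873 in edgeR). Both proteins are regulated after transcription, by degradation of IRP2 and by an iron-sulfur cluster in IRP1, which mRNA counts do not show.

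*Ncoa4* (ENSMUSG00000056234, chr14:32159865-32179855), the receptor that delivers ferritin to the lysosome so that its iron is released, had 1561, 1640, 1521 and 1651 normalized counts in WT replicates 1, 2, 3 and 5. The CD1d-KO libraries had 1635, 1693, 1223 and 1500, higher in 2 pairs and lower in 2, with replicate 3 the lowest of all 8. Its log2 fold change was -0.08 (95% interval -0.27 to 0.11, adjusted p = 0.745 in edgeR).

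*Lcn2* (ENSMUSG00000026822, chr2:32384633-32388252), which binds bacterial siderophores and so keeps iron from microbes, had the largest fitted fold change of the set and the lowest counts. Its normalized counts were 28.5, 46.2, 61.3 and 40.1 in WT replicates 1, 2, 3 and 5, and 37.2, 91.5, 119 and 45.1 in CD1d-KO. Each CD1d-KO library was above its WT partner, by 0.99 and 0.95 on the log2 scale in the pairs of replicates 2 and 3 and by 0.38 and 0.17 in those of replicates 1 and 5. The log2 fold change was 0.64 with a standard error of 0.21 (95% interval 0.15 to 1.14, adjusted p = 0.268 in edgeR), and 0.73 without replicate 1 (adjusted p = 0.432).

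Neutrophils are known for high *Lcn2*, so their markers were read beside it. *Ly6g* was at 0 in all 8 libraries, and *S100a9*, *Mpo*, *Elane*, *Ngp*, *Ltf* and *Cxcr2* had at most 3.30 normalized counts in any. *Camp* reached 6.45. *S100a8* ranged from 44.5 to 51.6 in the WT libraries and from 81.1 to 90.1 in the CD1d-KO libraries, and *Csf3r*, which macrophages also express, 2526 to 4696 and 4011 to 6112. Thus 2 of the 10 markers passed the filter. Both had an unadjusted p under 0.05 in edgeR (0.00100 and 0.00413), a level that 12.4% of all tested genes reached. The adjusted p-values in edgeR were 0.101 for *S100a8* and 0.164 for *Csf3r*. The summed level of the list ran from 2581 to 4745 in WT and from 4099 to 6197 in CD1d-KO. The part of such cells in the *Lcn2* values was not tested.

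**Figure D3:**
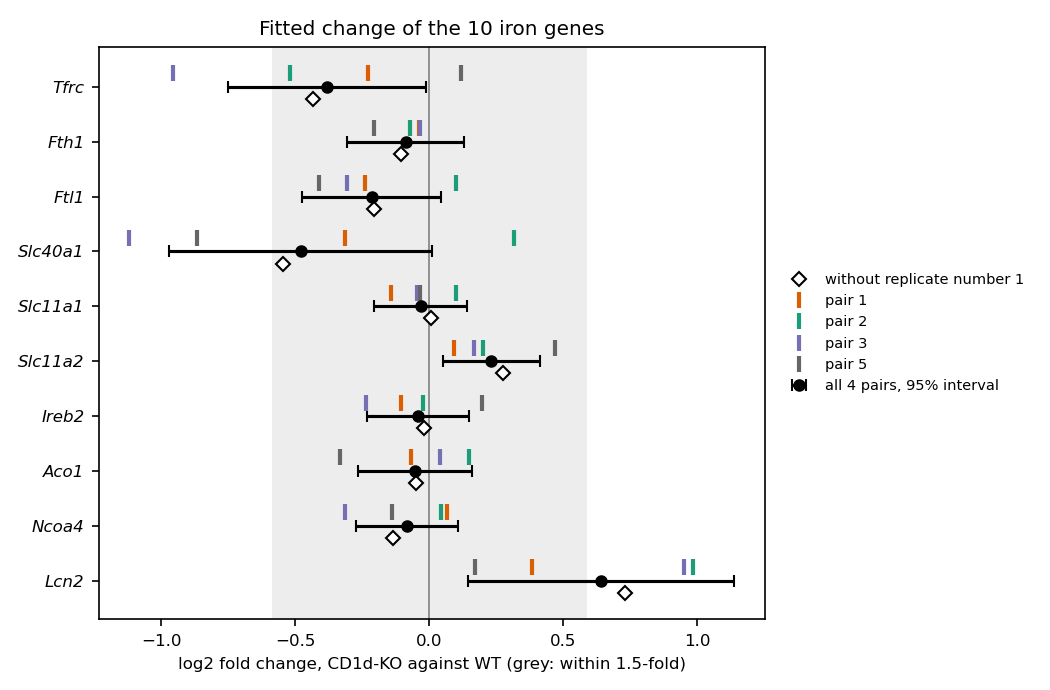
Fitted log2 fold change of each iron gene, CD1d-KO against WT, with its 95% interval (filled circles, all 4 pairs), the value without replicate 1 (open diamonds) and the log2 ratio of each pair (coloured ticks). The grey band holds changes within 1.5-fold, and the intervals of *Tfrc*, *Slc40a1* and *Lcn2* leave it.

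Leaving out the pair of replicate 1 changed little in the members near 0. For that fit the log2 fold change was -0.10 for *Fth1*, -0.21 for *Ftl1*, -0.02 for *Ireb2*, -0.05 for *Aco1* and -0.13 for *Ncoa4*, and their adjusted p-values in edgeR lay between 0.717 and 0.969. The values of *Fth1* without replicate 5 (-0.05) and of *Ncoa4* without replicate 3 (-0.0074) were smaller still. Over all alternative fits, the lowest adjusted p was 0.110 for *Tfrc*, 0.0753 for *Slc40a1*, 0.269 for *Slc11a2* and 0.178 for *Lcn2*, and the highest was at least 0.997 for each of the 4.

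Over the 8 libraries, the genes most like *Tfrc* in log2 CPM (counts scaled to library size) were *Lclat1* (Pearson's r = 0.958), *Evl* (0.941) and *Fut4* (0.941), out of 9942 genes compared. For *Slc40a1* they were *Slc43a2* (0.969), *Clock* (0.955) and *Kbtbd8* (0.954), and for *Fth1* *Snx17* (0.978), *Srp68* (0.975) and *Rpl24* (0.967). Within the set, *Fth1* went with *Slc11a1* (r = 0.854) and *Ftl1* (r = 0.726), and *Slc11a2* with *Lcn2* (r = 0.884). These values describe 8 libraries that share pairs and library size, and the highest of so many correlations is high by selection.

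The rest of the iron pathway was read from 6 lists that hold 56 other genes, of which 43 passed the filter. None was called by edgeR. At an unadjusted p under 0.05, 3 genes in CD1d-KO pMacs were above WT and 3 below, or 6 of 43 beside the 12.4% of all tested genes, and the median log2 fold change was -0.06. DESeq2 called 2, *Cd163* and *Spic*, beside 0.989% of all genes that it gave an adjusted p. These 2 genes are both known from the handling of haemoglobin by macrophages. In *Scara5*, *Ftmt*, *Hamp*, *Hamp2* and *Hfe2*, among them the hepcidin genes, 0 counts were found in all 8 libraries.

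**Figure D4:**
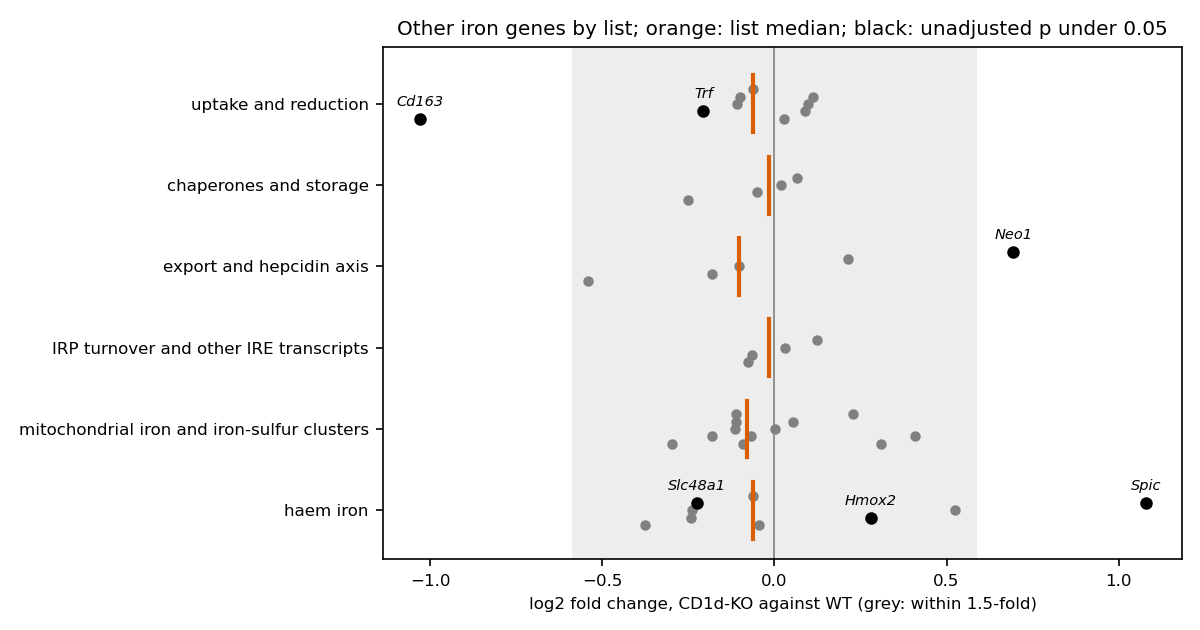
Log2 fold change, CD1d-KO against WT, of the 43 tested iron genes outside the set, 1 point per gene and 1 line per list, with the list median in orange and genes of unadjusted p under 0.05 named in black. The medians of the 6 lists lie between -0.10 and -0.02, and *Cd163*, *Neo1* and *Spic* lie outside the grey band of 1.5-fold.

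Among 9 tested genes of uptake and reduction, 2 were lower at an unadjusted p under 0.05 (12.4% of all tested genes) and 7 did not pass. *Cd163* (ENSMUSG00000008845), the macrophage receptor for haemoglobin bound to haptoglobin, had 385, 376, 240 and 277 normalized counts in WT replicates 1, 2, 3 and 5 and 151, 180, 68.1 and 265 in CD1d-KO. It was lower in 4 of 4 pairs, though barely in the pair of replicate 5, which makes the groups overlap. The log2 fold change was -1.03 with a standard error of 0.24 (adjusted p = 0.149 in edgeR and 0.00592 in DESeq2). Without replicate 1 it was -0.91 (adjusted p = 0.407 in edgeR), and DESeq2 no longer called it.

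*Trf*, which encodes transferrin itself, was the most abundant gene of that list at 3824 ± 411 TPM in WT and 3233 ± 229 TPM in CD1d-KO pMacs (SD, n = 4). Its normalized counts were 55453, 58790, 53666 and 50944 in WT replicates 1, 2, 3 and 5, and 46443, 49018, 47963 and 46080 in CD1d-KO. The groups did not overlap, as for 1.95% of all tested genes. The log2 fold change of *Trf* was -0.21 with a standard error of 0.08 (adjusted p = 0.358 in edgeR and 0.0777 in DESeq2). Transferrin mRNA thus exceeded that of its receptor *Tfrc* 234-fold to 482-fold in TPM over the libraries.

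Of 9 tested genes of haem iron, 2 were higher and 1 lower at an unadjusted p under 0.05, a level that 12.4% of all tested genes reached. *Spic* (ENSMUSG00000004359), a transcription factor of the macrophages that clear red blood cells, had 65.9, 176, 366 and 105 normalized counts in WT replicates 1, 2, 3 and 5, and 238, 236, 627 and 277 in CD1d-KO. Every CD1d-KO library was above its partner, and the ranges overlapped because replicate 3 was high in both genotypes. The log2 fold change was 1.08 with a standard error of 0.21 (adjusted p = 0.108 in edgeR and 0.00109 in DESeq2), and 0.85 without replicate 1 (adjusted p = 0.206 in edgeR), where DESeq2 no longer called it.

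Over all alternative fits the adjusted p ran from 5.56e-05 to 0.997 for *Spic*, from 2.64e-04 to 0.997 for *Cd163* and from 8.90e-04 to 0.997 for *Neo1*, a membrane receptor described with the export genes. The other haem genes differed less, and without replicate 1 the log2 fold changes of *Trf*, *Hmox2*, *Slc48a1* and *Hmox1* were -0.19, 0.25, -0.22 and -0.17. That of *Hmox1* was -0.37 without replicate 2. *Hmox2*, the constitutive haem oxygenase, had a log2 fold change of 0.28 (adjusted p = 0.243 in edgeR) and was higher in 4 of 4 pairs. *Slc48a1*, which carries haem out of the lysosome, had -0.23 (adjusted p = 0.400). *Hmox1*, the inducible oxygenase that frees iron from haem, ranked 28 among all genes with 2939 ± 985 TPM in WT and 2396 ± 311 in CD1d-KO pMacs (SD, n = 4), a log2 fold change of -0.24 (adjusted p = 0.461 in edgeR).

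Red blood cell transcripts were read beside these genes. The summed erythroid markers ran from 1.14 to 62.2 normalized counts in WT and from 3.43 to 267 in CD1d-KO, highest in CD1d-KO replicate 3, the library with the most *Spic* and the least *Cd163*. The library with the least *Spic* and the most *Cd163*, WT replicate 1, had a sum of 57.7. The lowest sum, 1.14, was in WT replicate 2, with 176 for *Spic* and 376 for *Cd163*, so the match is that of 1 library. The red cell anion exchanger *Slc4a1* was at 0 in all 8 libraries. The part of these cells in the 2 genes was not tested.

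**Figure D5:**
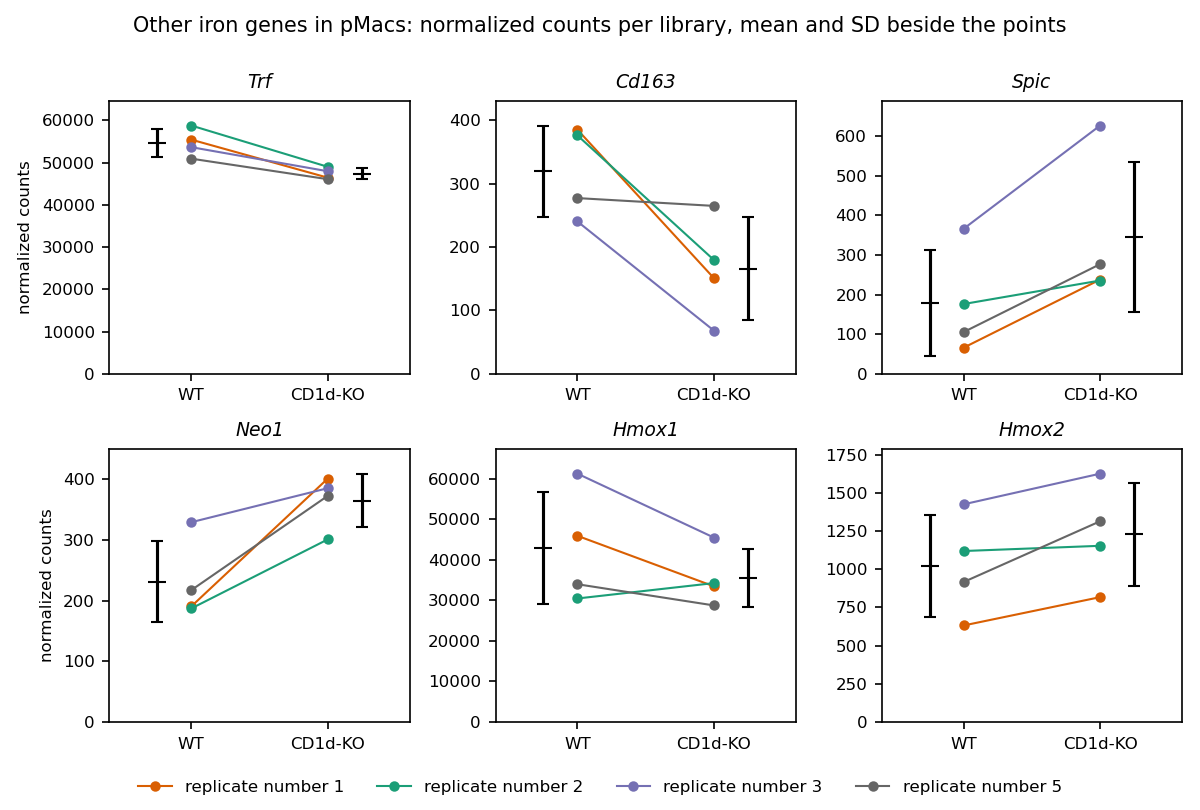
Normalized counts of 6 iron genes outside the set in WT and CD1d-KO pMacs, with a line for each shared replicate number and the mean ± SD (n = 4) at the sides. The CD1d-KO end is the lower one on all 4 lines for *Trf* and *Cd163* and the higher one on all 4 for *Spic*, *Neo1* and *Hmox2*, while the lines of *Hmox1* differ in direction.

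In the list of export and the hepcidin axis, 1 of 5 tested genes was higher at an unadjusted p under 0.05, beside 12.4% of all tested genes in either direction. *Neo1*, neogenin, a membrane receptor that takes part in hepcidin control in the liver, averaged 231 ± 66.9 normalized counts over the WT and 365 ± 44.3 over the CD1d-KO libraries (SD, n = 4 each). This is a log2 fold change of 0.69 with a standard error of 0.14 (adjusted p = 0.103 in edgeR and 0.0101 in DESeq2), and 0.56 without replicate 1. *Cp*, the copper oxidase ceruloplasmin that works with ferroportin, was the most abundant at 112 ± 15.5 and 107 ± 29.2 TPM (log2 fold change -0.10, adjusted p = 0.842 in edgeR, and -0.18 without replicate 1).

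The last 3 lists had no gene at an unadjusted p under 0.05. They were chaperones and storage (4 tested, led by the iron chaperone *Pcbp2*), IRP turnover and other transcripts with an iron-responsive element (4 tested), and mitochondrial iron and iron-sulfur clusters (12 tested, led by the scaffold *Iscu*). The log2 fold changes of *Pcbp2* and *Iscu* were 0.02 and -0.07, with adjusted p-values in edgeR of 0.947 and 0.767. Without replicate 1 they were 0.03 and -0.10.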

How the data were processed

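Reads were trimmed, aligned to GRCm38 with STAR 2.5.2a and quantified against Ensembl genes with RSEM 1.3.0, as the submitters' processing notes and the methods say. The deposited values are the expected counts of RSEM, not normalized, and TPM, which the authors' RSEM run corrected for length and scaled to one total per library. Whether reads were counted by strand was not given in the sources used here. Gene IDs were matched to GENCODE M21 (48349 of 48795, 99.09%).

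Rounded expected counts were fitted with edgeR 4.0.16 (R 4.3.3): TMM scaling, filterByExpr, quasi-likelihood test, genotype and replicate number as terms, Benjamini-Hochberg adjustment over 13040 genes. A positive log2 fold change means higher in CD1d-KO. DESeq2 1.42.0 and limma 3.58.1 on log2(TPM + 1) for genes above 1 TPM in at least 4 libraries, with a pseudocount of 0.1 as a further choice, were alternatives. The block comes from the study's methods, and deviations from the genotype means correlated between libraries of the same number (r = 0.49, 0.39, 0.51 and 0.21 for 1, 2, 3 and 5), all above 0.1, which is the criterion used here to take the numbers as pairs. For number 5 the highest correlation with a library of another number was as large (0.22). In a chi-square comparison of all library pairs no library was a copy of another. Copies of the ferritins were genes that matched over at least 300 bases at 90% identity (blastn 2.17.0).

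The members and all lists were chosen with earlier results of these data known. Named are the 10 members, *Cd1d1*, ferritin copies with counts, iron genes with an unadjusted p under 0.05, the most abundant gene of each iron list (one is not reported here), the 3 genes most like *Tfrc*, *Slc40a1* and *Fth1* (mean normalized count of at least 50), and markers where they move with a member. Of the marker lists not given with a result, mesothelial markers summed to at most 5.50 normalized counts, T and NK cell markers to at most 44.3, mast cell markers to at most 213 and eosinophil markers to at most 201, those of small peritoneal macrophages and dendritic cells ran from 7809 to 32018, those of large peritoneal macrophages from 294103 to 393555 and proliferation genes from 755 to 1956. Each library held *Xist* and at most 3.16 normalized counts of any Y-linked gene of the list. *Xist* ran from 6276 to 8258 in WT and from 9440 to 14972 in CD1d-KO (unadjusted p = 3.48e-04, adjusted p = 0.0575 in edgeR). Of 9 tested large macrophage markers, 1 had an unadjusted p under 0.05, *Timd4*, higher in CD1d-KO (log2 fold change 0.39, unadjusted p = 0.00710, adjusted p = 0.200 in edgeR). Of 7 tested markers of small macrophages and dendritic cells 1 did, *Itgax*, lower in CD1d-KO (-0.48, unadjusted p = 0.0347, adjusted p = 0.358 in edgeR). Of all tested genes 12.4% reached that level. The median log2 fold changes of these lists were 0.08 and 0.05. The fits were tested on simulated counts with known changes. These changes lay in genes of mean count above 50, were larger than any fitted change of the members, and came with no difference between replicate numbers. The simulation therefore did not test the replicate block or changes as small as those of the members. The changes were recovered, but with gene-wise dispersions, some of them far from the trend, false calls of edgeR exceeded the nominal rate, so an adjusted p near the threshold may be too small.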

Additional observations from a re-analysis of the deposited data

Results flagged for a closer look

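In 3 of the 44 groups of 4 libraries examined, 1 library stood far from the others by Dixon's criterion, which chance alone meets in about 1 in 20 groups. *Spic* had 627 normalized counts in CD1d-KO replicate 3 and 236 to 277 in the other CD1d-KO libraries. *Pcbp2* had 5271 in WT replicate 3 and 4378 to 4494 in the other WT libraries. *Cd1d1* had 60.7 in the library labelled CD1d-KO replicate 1 and 0 to 1.14 in the other CD1d-KO libraries.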

How the results depend on the processing

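No member was called under any of the alternatives run. Of 140 values of members under other settings, 135 kept their direction and their side of the threshold and 5 changed sign, all close to 0: *Slc11a1* to 0.0062 without replicate 1, 0.026 without the library labelled CD1d-KO replicate 1 and without the replicate block and 0.0058 in DESeq2 without replicate 1, *Ireb2* to 0.023 without replicate 3 and *Aco1* to 0.039 without replicate 5. Over the fits that leave out a pair, *Slc11a1* ran from -0.073 to 0.0062, *Ireb2* from -0.12 to 0.023 and *Aco1* from -0.12 to 0.039. Outside the set, *Pcbp2* turned to -0.015 (range -0.015 to 0.049) and *Cp* to 0.098 (-0.24 to 0.098) without replicate 2. The whole-table count of 5 moved to 105 in DESeq2, 236 with no filter on low counts, 53 at an adjusted p under 0.05 with no fold threshold, 3 by limma with either pseudocount, and ran from 3 to 22 when a pair was left out (22 without replicate 2, 3 without replicate 3 or 5). Among the 56 other iron genes the count moved from 0 to 2 in DESeq2 (*Cd163*, *Spic*) and to 3 with no filter (also *Neo1*); the cause was not tested. Fitted without the replicate block, which drops the pairing, 3 genes of the table and 0 members were called. The bias-adjusted form of the edgeR test (6 genes) and DESeq2 without replicate 1 (55 genes) were chosen after the data had been seen. *Lcn2* had the fewest reads of the members.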
